A study of Rattus norvegicus with 10 samples.

Results

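Macrophage genes were followed through rat knee cartilage in health, after chemical joint damage and after a combined gene treatment. The 9 named genes are Lyve1, Mrc1, Cd163, Folr2, Stab1, Trem2, Gpr34, Apoe and Gpnmb, and each was looked up by its symbol among the 17419 transcripts of the deposited table. Of these, 8 were found there, and Stab1 was not analysed here. Lyve1, Gpr34, Trem2 and Apoe (4 genes) were picked because they stood high in the treated libraries, so their values in that group are given as a description, with no test. Mrc1, Cd163, Folr2 and Gpnmb were not picked on that group.

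Tissue-resident macrophages settle in a tissue and renew there, and in joints they line the synovium and lie around small vessels. They carry scavenger and uptake receptors such as Mrc1, Cd163 and Folr2, and in many tissues a perivascular kind carries the hyaluronan receptor Lyve1. Macrophages that take up lipid-rich debris switch on another set of genes around the lipid-sensing receptor Trem2, with the lipoprotein Apoe and the lysosome-associated glycoprotein Gpnmb. These genes are background markers only, and several are also made by other cells: Lyve1 by lymphatic endothelium, Apoe and Gpnmb by many cell types.

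The tissue was the joint surface, shaved with a blade, of knees labelled with an age of 5 months whatever the interval. Healthy cartilage (HC, n = 2) was untreated. OAC (n = 3) was collected 4 weeks after papain and L-cysteine had been injected into the joint, which strips proteoglycan from cartilage as a chemical model of osteoarthritis. SHAM (n = 3) and KT (n = 2) were both collected 10 weeks after papain. SHAM had received AAV-DJ-GFP, an adeno-associated vector carrying a fluorescent protein, at week 4, and KT the 2 vectors AAV-DJ-Klotho and AAV-DJ-TGFBR2 at the same week. Both groups at 10 weeks had thus received a vector. The labels give neither strain nor separate animals, so a p-value here reflects only how far the libraries of a group differ, and part of that may be technical. In such bulk tissue, fewer cells of a type and less RNA per cell cannot be told apart.

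Promoter sequences, from 250 bases before to 50 after a start site, show what the genes share outside their expression values. RefSeq tables for GRCr8 held a promoter for all 8 genes, and those of 5 are printed here 5′ to 3′ on the gene's strand because the results turn on them: Lyve1 had its own course, Trem2 and Folr2 had nearly the same one, Gpr34 stood high in KT, and Gpnmb rose the most of the 8 from HC to OAC. Capitals mark matches, on either strand, to GAGGAA (a core read by the macrophage-lineage factor PU.1), CACGTG and CATGTG (E-box letters), TGANTCA (read by AP-1) and TGCTGA (a short MAF element).
Lyve1 promoter, chr1:174410928-174411227, minus strand: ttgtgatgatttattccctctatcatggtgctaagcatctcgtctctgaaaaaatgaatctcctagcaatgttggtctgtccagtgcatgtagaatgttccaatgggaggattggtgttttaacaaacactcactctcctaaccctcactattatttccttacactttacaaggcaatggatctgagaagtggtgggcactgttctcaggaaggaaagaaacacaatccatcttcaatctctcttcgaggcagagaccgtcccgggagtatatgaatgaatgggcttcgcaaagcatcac
Gpr34 promoter, chrX:11785787-11786086, minus strand: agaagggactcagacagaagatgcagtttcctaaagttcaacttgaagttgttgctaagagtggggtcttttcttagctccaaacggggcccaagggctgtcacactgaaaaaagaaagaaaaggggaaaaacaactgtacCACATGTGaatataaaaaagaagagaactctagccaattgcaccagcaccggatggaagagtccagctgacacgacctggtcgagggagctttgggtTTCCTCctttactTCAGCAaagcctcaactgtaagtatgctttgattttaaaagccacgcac
Trem2 promoter, chr9:20151730-20152029, minus strand: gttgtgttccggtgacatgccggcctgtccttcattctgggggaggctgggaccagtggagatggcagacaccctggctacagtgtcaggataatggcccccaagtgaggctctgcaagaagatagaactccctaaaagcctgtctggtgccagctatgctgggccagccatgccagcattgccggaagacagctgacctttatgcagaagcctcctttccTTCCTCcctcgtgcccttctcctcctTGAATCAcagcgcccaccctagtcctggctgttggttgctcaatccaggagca
Folr2 promoter, chr1:165630333-165630632, minus strand: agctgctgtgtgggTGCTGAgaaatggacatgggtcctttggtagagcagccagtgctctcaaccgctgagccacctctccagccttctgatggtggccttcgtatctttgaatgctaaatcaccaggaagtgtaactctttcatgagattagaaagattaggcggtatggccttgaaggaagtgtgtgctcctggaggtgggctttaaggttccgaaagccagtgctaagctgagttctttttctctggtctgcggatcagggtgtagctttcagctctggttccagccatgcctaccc
Gpnmb promoter, chr4:79340878-79341177, plus strand: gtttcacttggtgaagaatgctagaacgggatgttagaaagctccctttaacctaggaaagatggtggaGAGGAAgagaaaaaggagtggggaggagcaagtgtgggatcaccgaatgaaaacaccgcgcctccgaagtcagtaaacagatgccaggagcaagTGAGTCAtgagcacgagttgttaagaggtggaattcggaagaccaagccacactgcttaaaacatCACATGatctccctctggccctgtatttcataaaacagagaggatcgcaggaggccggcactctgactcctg
GAGGAA stood in the promoters of 5 of the 8 genes (Apoe, Gpnmb, Gpr34, Mrc1 and Trem2), against 27.6% of 33469 promoters of the same length. CATGTG stood in 4 (Apoe, Gpnmb, Gpr34 and Mrc1), against 14.0%, and in Gpr34 the 2 matches lie on opposite strands and overlap. TGANTCA stood in 2 (Gpnmb and Trem2), against 7.3%, TGCTGA in 2 (Folr2 and Gpr34), against 18.4%, and CACGTG in 0, against 6.4%. Apoe has 3 listed start sites and was counted if any held the letters. The shares are of single promoters, so counts with Apoe are not fully like them. Trem2 and Folr2, whose profiles were close, had none of these letters in common in their windows. A match is a run of letters and not a shown binding site.

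Levels are in FPKM, fragments scaled to exon length and library size, so they can be compared between genes. Recovered depth was 52.35 to 70.86 M reads per library, and the 8 genes rested on 196 to 80975 reads each per library. The header of the deposited comparison table holds 3 numbered NGS tags, and what they stand for is not known here. Tag 2 occurs only in OAC, in 2 of its 3 libraries. Since tags cannot be tied to single libraries, a tag and the OAC group cannot be fully told apart and no value within a tag can be given. One healthy library, HC 1, held 30197 FPKM summed over 15 muscle markers, against 376 in HC 2. The sum was uneven in the other groups too, at 390, 252 and 5727 in SHAM 1, SHAM 2 and SHAM 3. It was 221, 1437 and 526 in OAC 1, OAC 2 and OAC 3, and 1508 and 190 in KT 1 and KT 2. Muscle RNA thus differed between libraries of the same group, and its source was not tested. No 2 libraries held identical values.

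In mean level over the 10 libraries, Apoe came first at 445 FPKM, above 99.1% of the 11282 tested genes, followed by Gpnmb at 117 FPKM. Trem2 averaged 28.0 and Folr2 21.9 FPKM. The other genes lay in the middle of all genes or below it: Mrc1 at 9.39, Lyve1 at 7.11, Gpr34 at 6.96 and Cd163 at 5.28 FPKM, the last above 35.4% of tested genes.

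**Figure D1:**
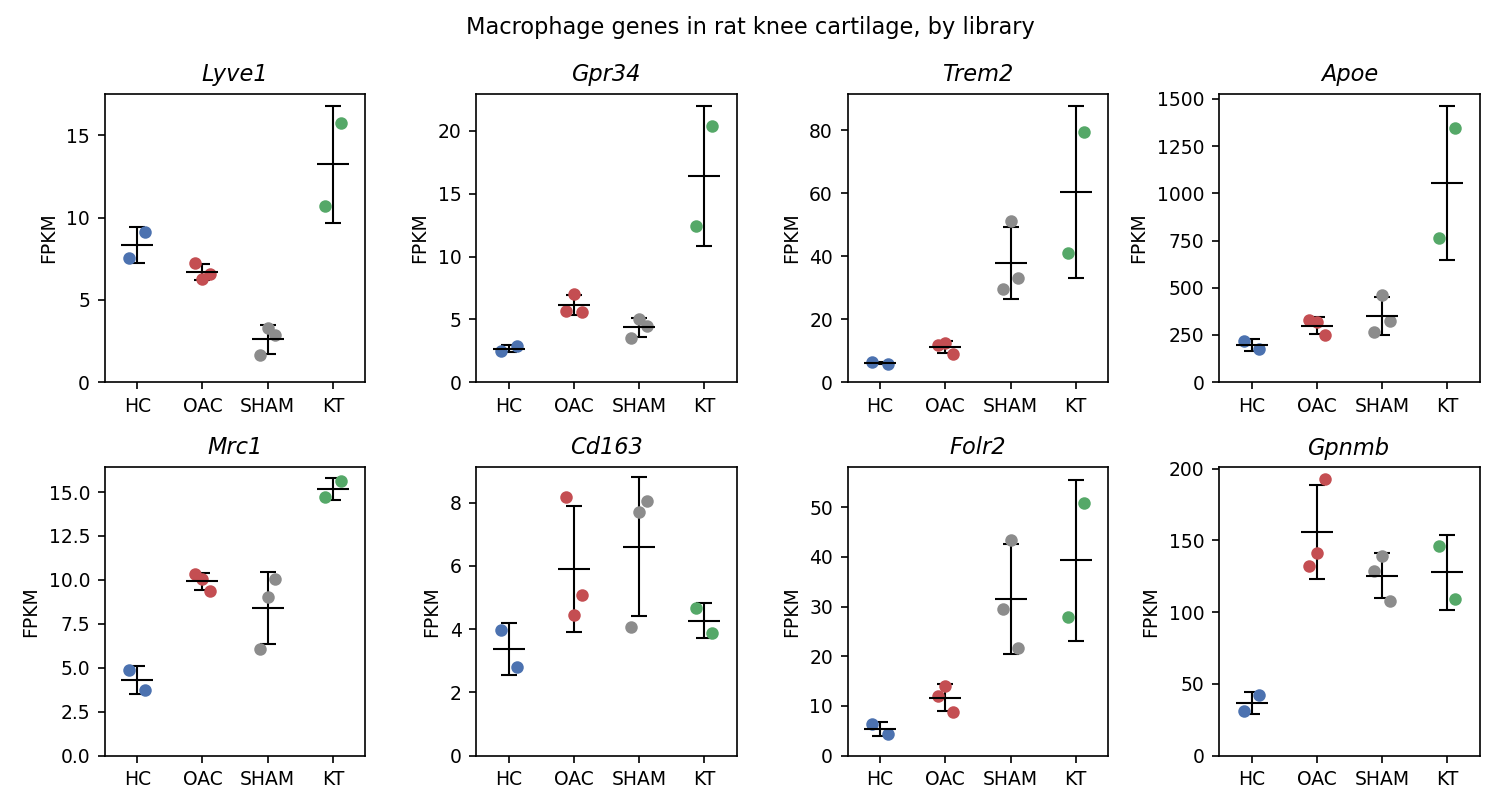
FPKM of the 8 genes in each of the 10 libraries, by group, with the group mean and SD as bars. Lyve1 is lowest in SHAM (1.63 to 3.32 FPKM) and highest in KT (10.7 and 15.8), while Gpnmb is lowest in HC (31.3 and 42.1) and similar in the other groups.

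Changes were tested with limma on log2(FPKM + 1), and a gene was called at a Benjamini-Hochberg adjusted p under 0.05 over all 11282 tested genes. Log2 differences below are on that scale, and ratios are of mean FPKM.

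Among the uptake receptors, Lyve1 binds hyaluronan, the long sugar polymer of joint fluid and matrix. Lyve1 (NM_001106286, rn6 chromosome 1, 175663266 to 175676699, minus strand) stood at 7.57 and 9.13 FPKM in HC, at 7.25, 6.28 and 6.58 in OAC, at 1.63, 3.32 and 2.88 in SHAM, and at 10.7 and 15.8 in KT. The 4 groups did not overlap, in the order KT, HC, OAC, SHAM. Its mean fell from 6.71 ± 0.496 (SD, n = 3) in OAC to 2.61 ± 0.873 (SD, n = 3) in SHAM, by 1.12 on the log2 scale (SE 0.199, limma adjusted p = 0.0356). Against HC (8.35 ± 1.10, SD, n = 2) the SHAM level fell by 1.40 (SE 0.222, limma adjusted p = 0.00279), and this call held in every alternative run. The OAC call is less firm, since it was lost without any 1 of the 6 OAC and SHAM libraries (limma adjusted p from 0.0561 without SHAM 2 to 0.134 without OAC 3), and also with no filter, with median-of-ratios scaling and with voom (adjusted p = 0.0717, 0.0557 and 0.0631). From HC to OAC the difference of -0.28 did not pass (SE 0.222, limma adjusted p = 0.373), while the authors' deposited table calls Lyve1 higher in HC by 0.50 (adjusted p = 0.0114). In KT the mean was 13.2 ± 3.55 FPKM (SD, n = 2), 5.07 times that of SHAM and 1.59 times that of HC, which is the value it was picked for. The low SHAM level enters that same contrast, so the fall in SHAM is not independent of the choice of Lyve1.

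Mrc1, the mannose receptor that clears glycoproteins and collagen fragments, took another course. Mrc1 (NM_001106123, chromosome 17, 81352700 to 81433743, plus strand) measured 4.89 and 3.76 FPKM in HC, 10.3, 10.05 and 9.37 in OAC, 6.09, 9.04 and 10.07 in SHAM, and 14.7 and 15.6 in KT. Every library after papain was above both HC libraries, and both KT libraries were above all others, while OAC and SHAM overlapped. Mrc1 rose from HC to OAC by 1.04 (SE 0.181, limma adjusted p = 0.00439), 2.29 times in mean FPKM, and was higher in SHAM than in HC by 0.80 (SE 0.181, limma adjusted p = 0.0124). The SHAM call was lost without HC 2 (0.65, limma adjusted p = 0.0661) and with only the 2 groups in the fit (limma adjusted p = 0.0608). KT exceeded SHAM by 0.81 (SE 0.181, 95% interval 0.40 to 1.22), which did not pass (limma adjusted p = 0.10), though the authors' deposited table calls it at a log2 fold change of 0.90 (adjusted p = 0.00605). KT exceeded HC by 1.61 (SE 0.198, limma adjusted p = 0.00242), or 3.51 times in mean FPKM.

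Cd163 takes up haemoglobin bound to haptoglobin. It (NM_001107887, chromosome 4, 156752093 to 156785467, plus strand) measured 3.96 and 2.80 FPKM in HC, 8.17, 4.44 and 5.08 in OAC, 4.08, 7.72 and 8.04 in SHAM, and 4.66 and 3.87 in KT. OAC, SHAM and KT overlapped one another, and KT overlapped HC. Cd163 passed in none of the 6 comparisons with limma (1, SHAM against HC, had an unadjusted p under 0.05, and passed without SHAM 1 at an adjusted p of 0.0231), is called in none of the 4 in the authors' deposited table, and its KT level differed from SHAM by -0.49 (SE 0.294, 95% interval -1.16 to 0.18, limma adjusted p = 0.472). Among the genes not picked on KT, its KT mean alone lay below that of SHAM, at 4.26 ± 0.554 (SD, n = 2) against 6.61 ± 2.20 FPKM (SD, n = 3).

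Folr2 is a surface receptor for folate found on resident macrophages. Folr2 (NM_001106283, chromosome 1, 166915045 to 166933377, minus strand) gave 6.37 and 4.34 FPKM in HC, 12.1, 14.1 and 8.75 in OAC, 29.6, 43.5 and 21.6 in SHAM, and 27.8 and 50.8 in KT. HC, OAC and SHAM did not overlap and went up in that order, and KT overlapped SHAM. Folr2 was higher than HC in SHAM by 2.32 (SE 0.338, limma adjusted p = 0.00195) and in KT by 2.62 (SE 0.37, limma adjusted p = 0.00381), which are 5.89 and 7.34 times in mean FPKM. The single steps did not pass: 0.99 from HC to OAC (limma adjusted p = 0.0561) and 1.33 from OAC to SHAM (limma adjusted p = 0.107), although the authors' deposited table calls both (adjusted p = 0.0119 and 5.48e-06). Folr2 did pass from HC to OAC with a pseudocount of 0.1 (limma adjusted p = 0.044), with only the 2 groups in the fit (0.0401), with the replicate block (0.0269) and without SHAM 2, SHAM 3, KT 1 or KT 2 (0.0431 to 0.0476). From OAC to SHAM it passed with array weights (limma adjusted p = 0.0376). KT and SHAM differed by 0.30 (95% interval -0.46 to 1.07, limma adjusted p = 0.723).

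Among the lipid-handling genes, Trem2 is a receptor for lipids and lipoproteins that signals through the adaptor Tyrobp. Trem2 (NM_001106884, chromosome 9, 14611561 to 14618013, minus strand) stood at 6.28 and 5.83 FPKM in HC, at 11.8, 12.5 and 9.07 in OAC, at 29.6, 51.0 and 33.2 in SHAM, and at 41.0 and 79.6 in KT. It went up from group to group, with KT overlapping SHAM. Trem2 rose from OAC to SHAM by 1.66 (SE 0.266, limma adjusted p = 0.0218), a ratio of 3.41, and from HC to SHAM by 2.43 (SE 0.297, limma adjusted p = 0.000894), a ratio of 6.26. The OAC to SHAM call was lost without OAC 1, OAC 2, OAC 3, SHAM 2 or SHAM 3 (limma adjusted p 0.0652 to 0.105). From HC to OAC the difference was 0.77 (SE 0.297) and did not pass (limma adjusted p = 0.0817), while the authors' deposited table calls it (adjusted p = 0.00793). That step passed with only the 2 groups in the fit, with the replicate block and without KT 1 or KT 2 (limma adjusted p = 0.0262, 0.0495, 0.0391 and 0.0393). Although picked for KT, Trem2 stood only 1.59 times above SHAM there in mean FPKM, at 60.3 ± 27.3 (SD, n = 2) against 37.9 ± 11.5 (SD, n = 3). That difference of 0.62 on the log2 scale was 0.15 without KT 2 and 1.09 without KT 1.

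Gpr34, a receptor for the lipid lysophosphatidylserine, is known from microglia and other resident macrophages. Gpr34 (NM_001024925, chromosome X, 10023489 to 10031167, minus strand) measured 2.48 and 2.85 FPKM in HC, 5.70, 7.05 and 5.61 in OAC, 3.53, 5.05 and 4.50 in SHAM, and 12.4 and 20.4 in KT. The groups did not overlap, in the order KT, OAC, SHAM, HC. Gpr34 rose from HC to OAC by 0.96 (SE 0.203, limma adjusted p = 0.0095), a ratio of 2.30, and this call was lost with voom on recovered reads (adjusted p = 0.0643). Its SHAM level differed from OAC by -0.42 and did not pass (limma adjusted p = 0.554). The SHAM level was 0.54 above HC, which did not pass (limma adjusted p = 0.0812) but did so with the replicate block and without KT 1 or KT 2 (limma adjusted p = 0.0471, 0.0333 and 0.0338). The KT mean of 16.4 ± 5.60 FPKM (SD, n = 2) was 3.76 times the SHAM mean of 4.36 ± 0.771 (SD, n = 3) and 6.16 times that of HC.

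Apoe carries lipid between cells and is a ligand of Trem2 and of lipoprotein receptors. Apoe (NM_001270684, chromosome 1, 80612894 to 80615525, minus strand) measured 219 and 175 FPKM in HC, 328, 321 and 251 in OAC, 266, 463 and 322 in SHAM, and 765 and 1344 in KT. OAC and SHAM overlapped, all their libraries were above HC, and both KT libraries were above all others. No comparison among HC, OAC and SHAM passed for Apoe with limma (1, SHAM against HC, had an unadjusted p under 0.05), with log2 differences of 0.61 from HC to OAC (SE 0.293, limma adjusted p = 0.151) and 0.80 from HC to SHAM (SE 0.293, limma adjusted p = 0.0753). The latter passed without KT 1 or KT 2 (limma adjusted p = 0.0488 in both). In KT the mean was 1054 ± 410 FPKM (SD, n = 2), 3.01 times that of SHAM. The 2 KT libraries were far apart, and KT 2 was the higher for Lyve1, Gpr34, Trem2, Apoe and Folr2, and by little for Mrc1.

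Gpnmb, a membrane glycoprotein of lysosomes that is also made by osteoclasts, was up in every library after papain. Gpnmb (NM_133298, chromosome 4, 78694447 to 78715685, plus strand) measured 31.3 and 42.1 FPKM in HC, 132, 141 and 193 in OAC, 129, 139 and 108 in SHAM, and 146 and 109 in KT. All 8 libraries after papain were above both HC libraries, and the 3 papain groups overlapped. Gpnmb rose from HC to OAC by 2.05 (SE 0.213, limma adjusted p = 0.000934), 4.24 times in mean FPKM, the most of the 8 genes in that comparison. It was 1.75 higher in SHAM than in HC (limma adjusted p = 0.00086) and 1.77 higher in KT than in HC (limma adjusted p = 0.00312). KT and SHAM differed by 0.02 (95% interval -0.47 to 0.50, limma adjusted p = 0.975), and this value was -0.02 under quantile normalization. Of 13 osteoclast markers, 11 rose from HC to OAC (3 without HC 1, 7 without OAC 2 or OAC 3), where 23.4% of all tested genes rose. The count without HC 1 is near that share. The markers summed to 259 to 614 FPKM in HC and 1573 to 4867 in OAC, and their part in the Gpnmb result was not tested.

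**Figure D2:**
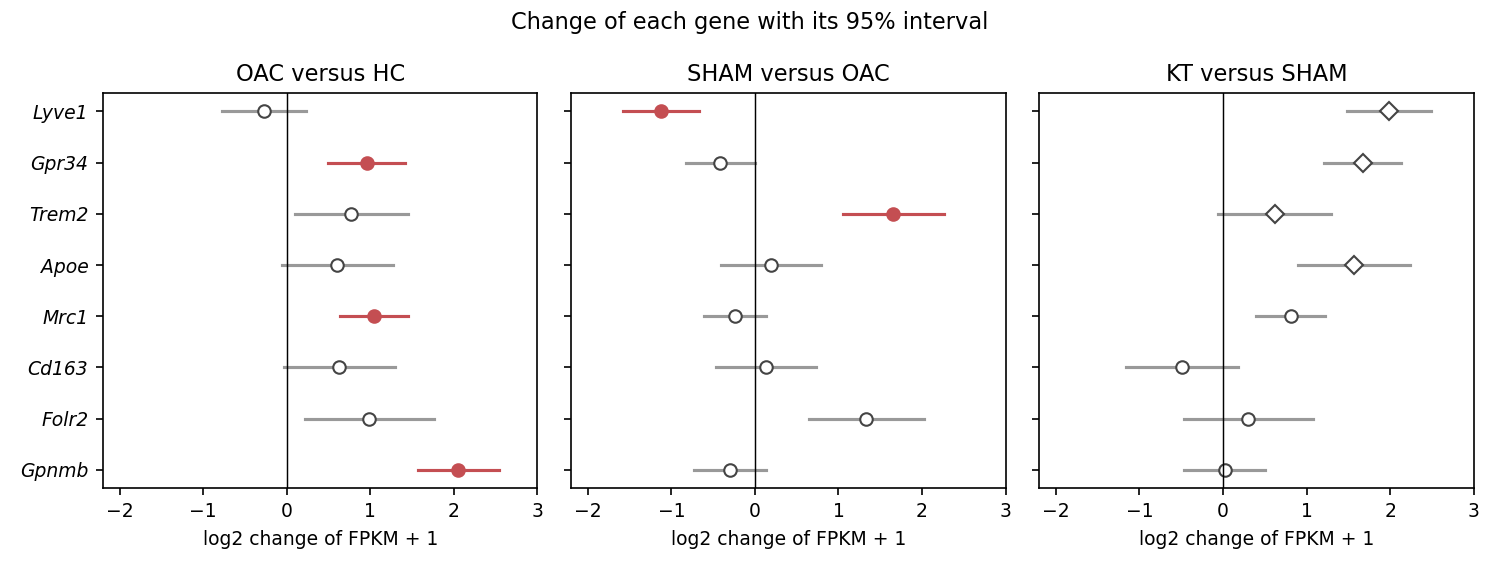
Log2 differences in log2(FPKM + 1) of the 8 genes in OAC against HC, SHAM against OAC and KT against SHAM, with 95% intervals. Red points are called, and diamonds are Lyve1, Gpr34, Trem2 and Apoe in comparisons with KT, which carry no test. Gpnmb has the highest value from HC to OAC (2.05), and from OAC to SHAM Trem2 (1.66) and Lyve1 (-1.12) are called in opposite directions.

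Read as a group, 3 of the 8 genes rose from HC to OAC (Gpr34, Mrc1 and Gpnmb) and none fell, where 29.7% of all tested genes were called, 23.4% higher and 6.27% lower. The libraries of HC and OAC did not overlap for any of the 8 genes, which held for 56.3% of all tested genes. Their median difference was 0.86, against 0.14 over all tested genes. From OAC to SHAM, Trem2 rose and Lyve1 fell, so 2 of 8 were called, where 1.16% of all tested genes were, 0.922% higher and 0.239% lower. The libraries of these groups did not overlap for 4 of 8 (Lyve1, Gpr34, Trem2 and Folr2), against 17.9% of all tested genes. Their median was -0.05, against -0.02 over all genes. From HC to SHAM, 4 rose (Trem2, Folr2, Mrc1 and Gpnmb) and Lyve1 fell, where 26.5% of tested genes were called, 21% higher and 5.48% lower. Here too the libraries did not overlap for any of the 8, against 51.2% of all tested genes. These 3 comparisons share libraries and are not independent of one another. Lyve1, Gpr34, Trem2 and Apoe were picked on KT, and their SHAM levels can enter that choice. The counts with SHAM are thus not independent of it, and both genes called from OAC to SHAM are picked ones. Of the 4 genes not picked, 0 were called from OAC to SHAM and 3 from HC to SHAM. The healthy comparisons also depend on scaling: over all genes the median from HC to OAC was 0.136 as deposited and -0.018 under quantile normalization, and 78.9% of the called genes were higher as deposited against 57.5% then.

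For the 4 genes not picked on KT, 0 of 4 were called between SHAM and KT by limma, where 1.05% of all tested genes were, 0.363% higher and 0.683% lower in KT. The libraries did not overlap for 1 of the 4, Mrc1, and for 32.4% of all tested genes. Mrc1 alone had an unadjusted p under 0.05, voom called 0, and the authors' deposited table calls Mrc1. Against OAC also 0 of 4 were called in KT, where 0.399% of tested genes were, 0.257% higher and 0.142% lower. The libraries did not overlap for Mrc1 and Folr2, and for 40.8% of all tested genes. There, Mrc1 and Folr2 had an unadjusted p under 0.05, voom called 0, and Folr2 was called without KT 1 (2.06, limma adjusted p = 0.0436). Against HC 3 of 4 were higher in KT (Mrc1, Folr2 and Gpnmb), where 18.2% of tested genes were called, 14.3% higher and 3.95% lower, and 0 of 4 when only the 2 groups entered the fit. The same 3 genes had libraries that did not overlap with HC, as did 54.7% of all tested genes.

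Relative to general macrophage and myeloid markers, the 8 genes followed different courses. The mean log2(FPKM + 1) of 20 macrophage and myeloid markers was 3.84 to 4.00 in HC, 5.16 to 5.48 in OAC, 5.79 to 6.14 in SHAM, and 5.44 and 5.50 in KT, so in KT it lay below every SHAM library and within or just above the OAC range. Relative to that mean, Lyve1 averaged -0.70 in HC, -2.41 in OAC, -4.10 in SHAM and -1.66 in KT. Gpr34 and Mrc1 had the same order of OAC, SHAM and KT as Lyve1, lowest in SHAM (-3.51 and -2.72) and highest in KT (-1.39 and -1.46).

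Apoe, too, was lowest in SHAM relative to the markers (2.49) and highest in KT (4.52). Trem2 and Folr2 were instead lowest in OAC (-1.77 and -1.72) and higher in SHAM (-0.68 and -0.96) and KT (0.39 and -0.20). Cd163 stood apart, at -3.04 in SHAM and -3.08 in KT after -1.80 in HC. These relative levels are a description of log2 differences, and for the 4 picked genes they include the values that chose them. They also depend on which markers enter the mean. From SHAM to KT, 3 of the 20 markers had a log2 difference above 0. Csf3r measured 10.3, 14.8 and 17.3 FPKM in SHAM and 10.5 and 4.4 in KT. Adgre1 measured 7.1, 9.3 and 7.8 in SHAM and 7.5 and 9.7 in KT. The part of neutrophils in the marker mean was not tested.

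**Figure D3:**
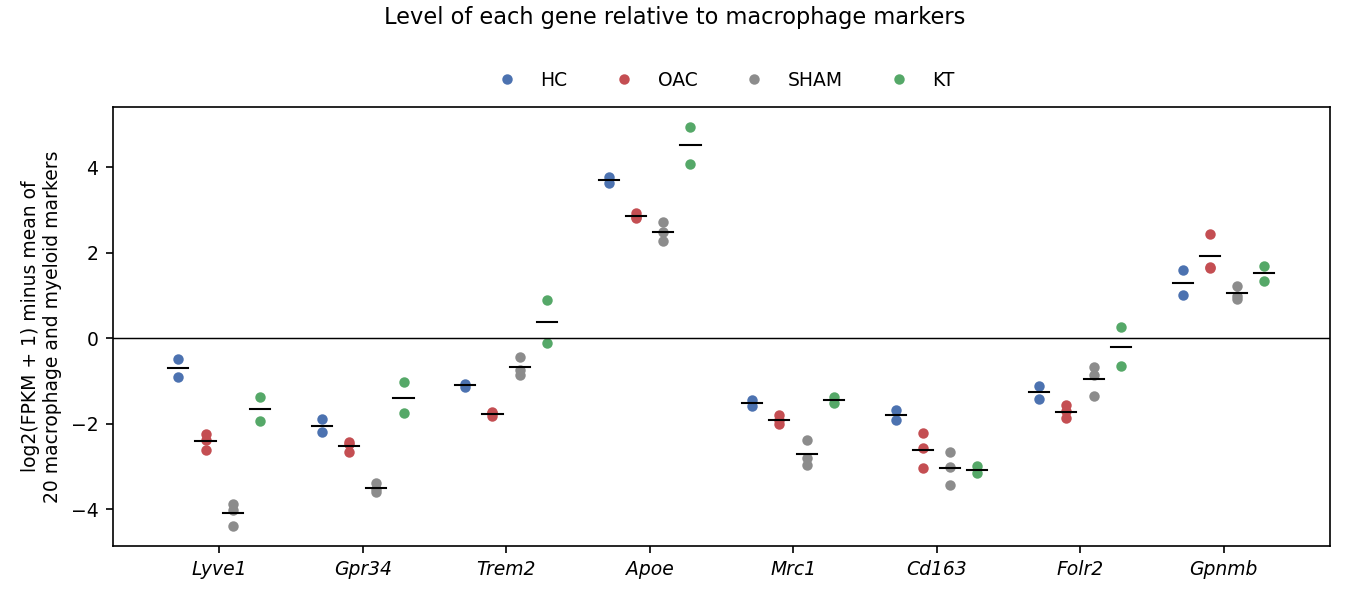
Log2 level of each of the 8 genes relative to the mean of 20 macrophage and myeloid markers, in each library by group, on the log2(FPKM + 1) scale. Lyve1 is lowest in SHAM (-4.39 to -3.89), and Cd163 is at a like level in SHAM and KT.

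Over the 10 libraries, Trem2 and Folr2 had nearly the same profile. The measure is the root mean square difference between log2(FPKM + 1) profiles standardised over the libraries, where 0 is identical, computed with no test. The Trem2 to Folr2 value was 0.213, and Folr2 had rank 4 of 11280 genes ordered by likeness to Trem2. Gpr34 and Apoe came next at 0.365, each at rank 14 for the other, and Gpr34 and Mrc1 at 0.458. Lyve1 and Cd163 were the farthest apart, at 1.677. The profiles include KT, so for Lyve1, Gpr34, Trem2 and Apoe likeness partly reflects the values that chose them.

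Outside the set, 3 genes were named as nearest to each member. These profiles too include the KT values that chose Lyve1, Gpr34, Trem2 and Apoe. Nearest to Folr2 were Ctss (0.165), a lysosomal protease, C1qc (0.182), a complement subunit that resident macrophages make, and Fxyd2 (0.185). Nearest to Trem2 were Fxyd2 (0.193), Ctss (0.194) and P2ry6 (0.213), a receptor for nucleotides. Nearest to Gpnmb were Uap1l1 (0.172), Dpp3 (0.188) and Csf1r (0.196), the receptor for macrophage growth factor. For Gpr34 they were Steap1 (0.22), Fzd1 (0.241) and Ctsl (0.258), and for Apoe they were Pepd (0.202), Cdkn2a (0.286) and P2ry12 (0.307). Mrc1 had Mrps17 (0.227), Crabp2 (0.251) and Spon1 (0.278), Cd163 had Abcc3 (0.264), Rxfp1 (0.31) and Bora (0.312), and Lyve1 had Zeb1 (0.388), Adamts12 (0.392) and Pip4p2 (0.406).

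**Figure D4:**
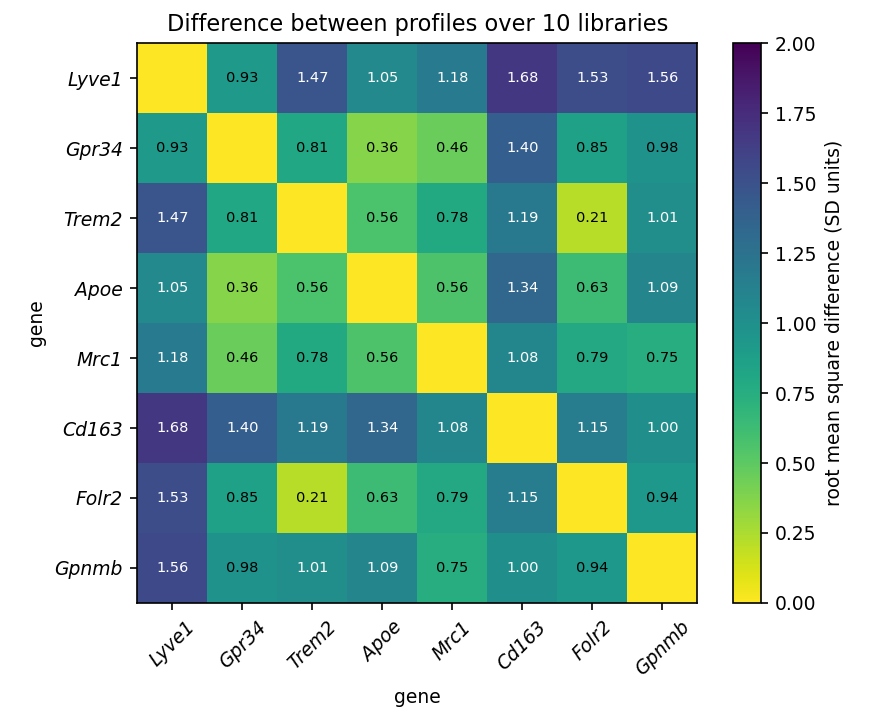
Root mean square difference between the standardised log2(FPKM + 1) profiles of each pair of the 8 genes over 10 libraries, where lower is more alike. Trem2 and Folr2 (0.213) are the closest pair, and Lyve1 and Cd163 (1.677) are the farthest. The KT values that chose Lyve1, Gpr34, Trem2 and Apoe are included.

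Partner genes were taken from lists by role. Of 8 measured Trem2 signalling partners, 7 rose from HC to OAC and 0 fell, where 23.4% of all tested genes rose (median 1.35, against 0.14 over all genes). This rise was not particular to them. General macrophage and myeloid markers rose in 19 of 20 cases (median 1.40), and neutrophil markers in 11 of 11 (median 2.05). Tyrobp, the Trem2 adaptor, went from 65.0 to 250 FPKM (1.92, SE 0.158, limma adjusted p = 0.000656), and its relative Hcst from 3.40 to 14.0 (limma adjusted p = 0.00243). The kinases Btk and Syk rose too, by 1.39 and 1.35 (limma adjusted p = 0.000972 and 0.00143). Between SHAM and KT, 0 of 8 were called, 7 had an unadjusted p under 0.05 with lower values in KT, and the median was -0.54, against -0.04 over all genes. In that comparison the median was -0.46 for macrophage and myeloid markers and -0.80 for neutrophil markers. Tyrobp there measured 323, 354 and 268 FPKM in SHAM and 273 and 213 in KT. The Trem2 mean was 60.3 FPKM in KT and 37.9 in SHAM.

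Of 8 measured receptors for Apoe, 3 rose and 2 fell from HC to OAC, where 23.4% of all tested genes rose and 6.27% fell. Scarb1, which takes up lipid from lipoproteins, rose by 0.52 (limma adjusted p = 0.0139), while Lrp1 fell by 0.59 (limma adjusted p = 0.049) and Sorl1 by 0.50 (limma adjusted p = 0.0264). Each of these 3 calls was lost without 1 library or more: Scarb1 without HC 1, Sorl1 without HC 2, OAC 2 or OAC 3, and Lrp1 without any library but HC 1. Of 9 other settings, 1 ended the Scarb1 call, 3 the Sorl1 call and 4 the Lrp1 call. None of the 8 was called in SHAM against OAC or in KT against SHAM, and 1 and 2 respectively had an unadjusted p under 0.05. Of 12 measured genes of the hyaluronan system, 3 rose from HC to OAC, a share near the 23.4% over all tested genes, namely the degrading enzyme Hyal1 (5.58 to 13.7 FPKM) and the receptors Hmmr (3.66 to 8.96) and Cd44 (28.6 to 51.4). Hmmr and Cd44 held in every alternative, and Hyal1 was lost without HC 1, OAC 2 or OAC 3 and in 6 of 9 other settings. None of the 12 was called by limma in SHAM against OAC or in KT against SHAM, where 1 and 2 had an unadjusted p under 0.05.

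In the lysophosphatidylserine system 1 of 6 genes rose from HC to OAC, no more than the 23.4% over all tested genes: the lysophosphatidylserine receptor Gpr174, by 0.57 (limma adjusted p = 0.0325), a call lost without HC 1, HC 2 or OAC 1 and in 5 of 9 other settings. Of 11 haptoglobin and haem genes, 6 rose and 1, Lrp1, fell from HC to OAC (2 rose without HC 2 or OAC 2, or with voom, and 3 without OAC 1), where 23.4% of all tested genes rose and 6.27% fell. Of these, haptoglobin itself, Hp, went from 20.4 to 92.2 FPKM (limma adjusted p = 0.03), and that call was lost without any 1 of the 5 HC and OAC libraries and in 3 of 9 other settings. The haem genes Blvrb, Slc40a1 and Blvra rose by 1.11, 0.98 and 0.77 (limma adjusted p = 0.0258, 0.00887 and 0.0179). Slc40a1, the iron exporter, held in every alternative, while Blvrb and Blvra were lost without HC 2 or OAC 2, and Blvrb also without OAC 1, and 4 and 3 of 9 other settings ended them. Of 6 folate genes 2 rose (1 without HC 2, OAC 1, OAC 2 or SHAM 1, and 1 in 6 of 9 other settings), against 23.4% of all tested genes, among them Ggh, which trims folate chains, by 0.97 (limma adjusted p = 0.00231), and the Ggh call held in every alternative. With limma, 0 genes of these 3 lists were called between OAC and SHAM or between SHAM and KT. At an unadjusted p under 0.05 stood 0 and 1 of the lysophosphatidylserine genes, 1 and 2 of the haem genes and 1 and 1 of the folate genes.

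Other genes known from resident macrophages rose in 10 of 23 cases from HC to OAC (median 0.51, 6 of 23 with median-of-ratios scaling or voom, and 5 without OAC 2). Over all tested genes 23.4% rose, and the lower counts are near that share. Named by size, these were Pf4, a platelet chemokine also made by macrophages (78.1 to 247 FPKM), the lectin Fcna (9.88 to 29.7), and the complement subunits C1qa (32.5 to 74.9) and C1qb (23.5 to 50.9). Fcna and C1qa held in every alternative, while C1qb was lost without HC 2 or OAC 2 and with array weights, and Pf4 without HC 2. In SHAM against OAC, only Ms4a7 of the 23 was called, at 5.71 against 1.42 FPKM (limma adjusted p = 0.0222), and this call was lost without OAC 1, OAC 3, SHAM 1 or SHAM 2 and with no filter. In KT against SHAM 0 of 23 were called, with a median of 0.24 against -0.04 over all genes, and 6 had higher and 2 lower values at an unadjusted p under 0.05. Of these 23 genes Vsig4, a complement receptor singled out here after its values were seen, measured 8.26, 20.7 and 4.23 FPKM in SHAM and 39.6 and 111 in KT, a difference of 2.73 (SE 0.646) that did not pass (limma adjusted p = 0.12).

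Of 27 other lipid-handling macrophage genes, 12 rose and 1 fell from HC to OAC (7 rose without OAC 2, 6 with median-of-ratios scaling or array weights, 5 with quantile normalization and 4 with voom). Over all tested genes 23.4% rose and 6.27% fell, so the lower counts are near or below that share. The cathepsin inhibitor Cst7, the lectin Clec7a, the fatty acid binding protein Fabp5 and the scavenger receptor Msr1 led them, with ratios of 3.91, 3.71, 3.34 and 3.11. The Msr1 call was lost without HC 2, with array weights and with voom, and the other 3 held in every alternative. From OAC to SHAM only Ch25h, which makes a cholesterol derivative, was called (1.09 to 2.73 FPKM, limma adjusted p = 0.0246), and without any 1 of the OAC and SHAM libraries it was lost. From SHAM to KT 1 of 27 was called: Pltp, a phospholipid transfer protein, stood at 32.1, 41.1 and 33.6 FPKM in SHAM and at 61.4 and 94.5 in KT (1.08, SE 0.199, limma adjusted p = 0.0466). The Pltp call was lost in 7 of 9 other settings and when any 1 library other than KT 1 was left out. The median of the 27 was 0.01.

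**Figure D5:**
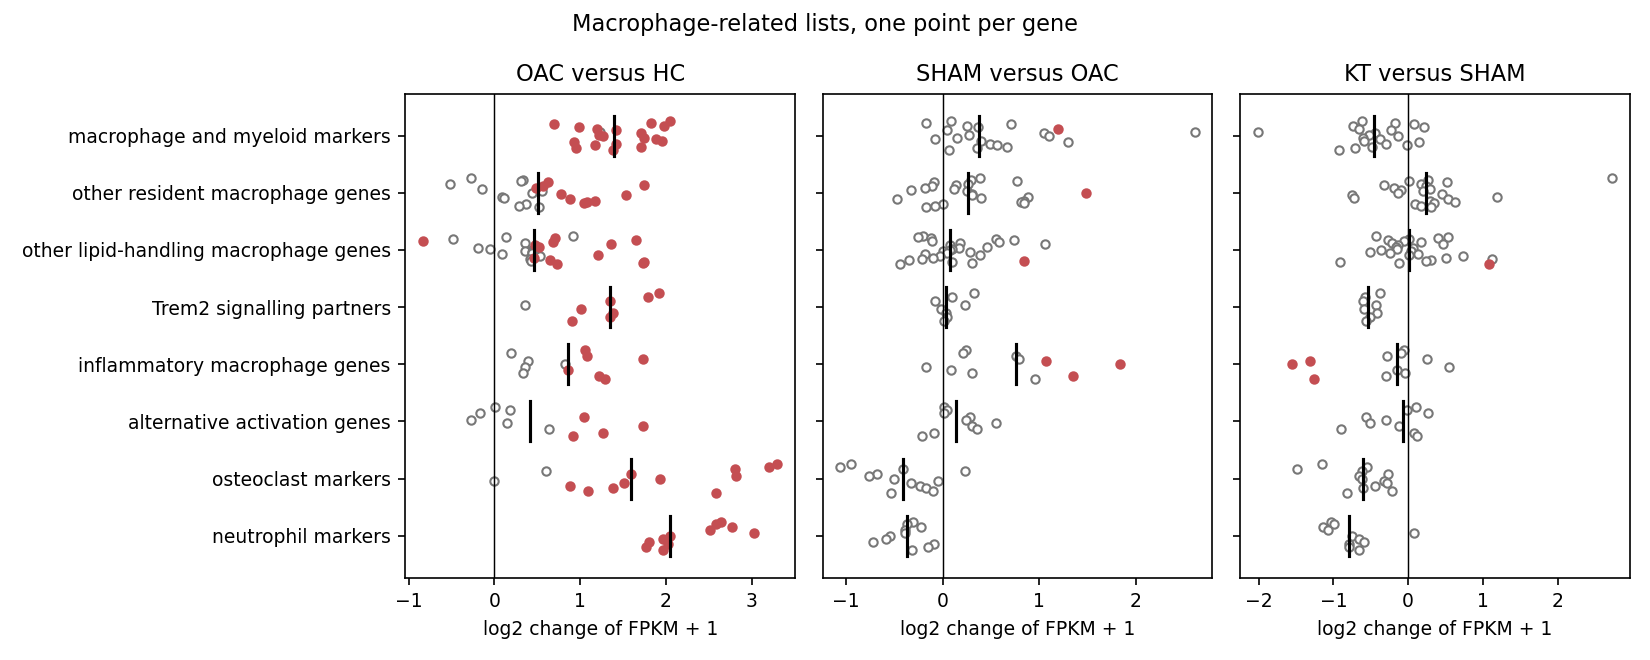
Log2 differences of the genes of the macrophage-related, Trem2 partner, osteoclast and neutrophil lists in 3 comparisons, on the log2(FPKM + 1) scale. Each gene is a point, with called genes in red and the median as a black bar. The Apoe receptor, hyaluronan, lysophosphatidylserine, haem and folate lists are not shown. Trem2 signalling partners lie high in OAC against HC (median 1.35) and low in KT against SHAM (median -0.54). Macrophage and myeloid markers do so too (medians 1.40 and -0.46).

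Markers of other cells and of inflammation moved beside the members. Of 11 genes listed as inflammatory macrophage genes, 3 fell from SHAM to KT, where 0.683% of all tested genes fell. The median of the 11 was -0.153, against -0.035 over all genes. Ccl3 was at 5.74, 5.34 and 4.96 FPKM in SHAM and 1.79 and 1.34 in KT (difference -1.31, SE 0.135, limma adjusted p = 0.00267), and this call held in every alternative. Ccl4 fell by 1.56 and Il1rn, the interleukin-1 receptor antagonist, by 1.25 (limma adjusted p = 0.0446 and 0.0459). The Ccl4 call was lost without OAC 2, OAC 3, SHAM 1, SHAM 3, KT 1 or KT 2 and in 7 of 9 other settings, and the Il1rn call without SHAM 1, SHAM 2, SHAM 3, KT 2 or any OAC library and in 4 of 9 other settings. In SHAM against OAC, where 0.922% of all tested genes rose, Ccl3, Ccl4 and Tlr2 rose (limma adjusted p = 0.00357, 0.0105 and 0.0308). Of these, Ccl3 held in every alternative, Ccl4 was lost without OAC 2, OAC 3 or SHAM 3, and Tlr2 without any 1 of the OAC and SHAM libraries and with no filter. The antibody receptor Fcgr1a rose too (17.7 to 41.8 FPKM, limma adjusted p = 0.00662) and held in every alternative. It was the only 1 of 20 macrophage markers called there, against 2 without HC 1, OAC 2, KT 1 or KT 2 and 7 with array weights.

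Beside the KT values of Lyve1, Gpr34, Trem2 and Apoe, the sums of other markers were as follows. Macrophage and myeloid markers summed to 5263 to 8607 FPKM in SHAM and 4400 to 5492 in KT, with overlap, and 0 of the 20 were called by limma, 1 by voom and 1 without KT 1, while 12 had lower values in KT at an unadjusted p under 0.05. Lyz2 alone was most of this sum, at 5102, 7129 and 4104 FPKM in SHAM and 3437 and 4445 in KT. Neutrophil markers summed to 10427 to 12514 in SHAM and 3788 to 8518 in KT, and erythroid markers to 30979 to 41466 and 20861 to 22317. S100a8 and S100a9 were most of the neutrophil sum, and Hba1 and Hbb most of the erythroid sum. Synovial lining and fibroblast markers went the other way as a sum, at 2841 to 3849 in SHAM and 4706 to 5302 in KT. Prg4, also a listed chondrocyte marker, was most of that sum, at 2548, 1651 and 2291 FPKM in SHAM and 2778 and 3771 in KT. Col1a1 overlapped, at 853, 703 and 365 FPKM in SHAM and 782 and 282 in KT. Of the 13 genes, 11 had a log2 difference above 0, and 2 were called higher in KT, where 0.363% of all tested genes were. These were Pdpn (15.1 to 38.8 FPKM, limma adjusted p = 0.00633) and Col3a1 (219 to 798 FPKM, limma adjusted p = 0.0333). Pdpn held in every alternative, and Col3a1 was lost without OAC 3, SHAM 1, SHAM 2, SHAM 3, KT 1 or KT 2 and in 4 of 9 other settings.

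Lymphatic endothelium also makes Lyve1. The 6 lymphatic endothelial markers summed to 22.7 to 24.2 FPKM in HC, 32.3 to 38.4 in OAC, 15.6 to 21.6 in SHAM and 38.7 to 46.0 in KT, and Pdpn, which synovial lining also makes, was most of that sum. Prox1, which defines lymphatic endothelium, was between 0 and 0.04 FPKM in all 10 libraries, with 0 in OAC 1 and in every SHAM library. The other listed markers were low but reached higher values. Over the 10 libraries Flt4 was 0.443 to 1.841, Stab2 0.535 to 1.812, Reln 0.436 to 2.015 and Ccl21 0 to 2.251 FPKM. Chondrocyte markers summed to 8844 to 12081 in SHAM and 11139 to 13745 in KT, and 0 of 14 were called. The part of these other cells in the members' values was not tested.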

How the data were processed

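RNA libraries (TruSeq, polyA, stranded and paired-end) of 10 samples were used. The submitters' processing notes list rn6 as the build and, as tools, STAR 2.5.3a, FastQC 0.11.2, DESeq2 1.18.1 and HOMER (release not given in the sources used here). Values are FPKM of 1 transcript per gene, which the authors made with HOMER from reads on exons with its minus strand option, per the file headers. The authors' deposited comparison table gives log2 fold changes with p-values and adjusted p-values for 4 pairs of groups. The counts named in its header carry the word "remove", so it is unclear whether all sequenced libraries are included. All per-sample columns were used.

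Here, log2(FPKM + 1) was fitted with limma 3.58.1 in R 4.3.3 (intensity trend, 1 fit of the 4 groups and 10 libraries, no covariate) for genes averaging 0.5 FPKM or more, with two-sided tests. FPKM are not counts, so no count model was the main test. Reads were recovered from FPKM and exon length, with 100% of low values within 0.15 of a whole read, and voom was run on them as an alternative. The fit was tested on simulated data. Of 309 entries in 22 partner and marker lists, 284 were in the table. The members and the lists were chosen with earlier results of these data known. From each list, up to 4 called genes of at least 1 FPKM with the largest change were named per comparison, plus the 3 nearest genes to each member; some genes this rule names are not reported here. Alternatives changed the pseudocount, filter, scaling, library weights, libraries in the fit, test and replicate block, and left out each library in turn.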

Additional observations from a re-analysis of the deposited data

How the results depend on the processing

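Each group has 2 or 3 libraries, and single libraries decide several calls. Leaving out 1 library at a time gave 3 to 5 members called in OAC against HC, 0 to 2 in SHAM against OAC and 4 to 7 in SHAM against HC. Of the 4 members not picked on KT, it gave 0 throughout in KT against SHAM, 0 to 1 in KT against OAC and 3 throughout in KT against HC. Members called in SHAM against OAC numbered 1 with no filter, 1 with median-of-ratios scaling and 1 with voom, in place of 2, and 3 with array weights. With only the 2 groups in the fit, 5 members were called in OAC against HC in place of 3 (4 with a pseudocount of 0.1, 2 with voom), and 0 of 4 in KT against HC in place of 3. The cause was not tested. Values that changed sign were small. Gpnmb in KT against SHAM was -0.016 with quantile normalization, and from -0.19 to 0.226 with 1 library left out (-0.085 without SHAM 3). Cd163 in SHAM against OAC ran from -0.019 without OAC 2 to 0.402, and was -0.014 without SHAM 3. Apoe in SHAM against OAC ran from -0.025 to 0.373, and Folr2 in KT against SHAM from -0.118 to 0.726. Of 81 calls of named list genes, 40 held in every alternative.

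Over all genes, the number called in OAC against HC was 3348, and 1974 to 3387 in the other settings. In SHAM against HC it was 2986 and 1628 to 3042, in KT against HC 2057 and 9 to 2129, in SHAM against OAC 131 and 107 to 324, in KT against SHAM 118 and 79 to 119, and in KT against OAC 45 and 13 to 48. With 1 library left out, these became 2164 to 3330, 1968 to 2972, 971 to 2208, 54 to 164, 45 to 122 and 4 to 312. The share of calls that were higher in OAC than in HC was 78.9%, and 57.5%, 56.1% and 53.5% with quantile normalization, median-of-ratios scaling and voom. In SHAM against HC it was 79.3%, then 56.4%, 57.3% and 55.6%, in KT against HC 78.3%, then 60.4%, 57.2% and 55.6%, and in KT against OAC 64.4%, then 75.7%, 68.2% and 67.7%. With the replicate block, 5 members were called in OAC against HC and 6, in place of 5, in SHAM against HC (4 with only the 2 groups). Deviations from the group mean in libraries of the same number had correlations of -0.479 to 0.486 over 13 pairs, 4 of them above 0.1. With 2 or 3 libraries per group such deviations are tied to one another, so they cannot show or exclude a pairing. The main fit took the numbers as no pairing.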
